A study of Mus musculus with 6 samples.

Results

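The amyloid precursor family and its partners were followed through neuronal differentiation of P19 cells as 9 genes: App, its relatives Aplp1 and Aplp2, the adaptors Apbb1, Apbb2, Apbb3 and Apba1, and the proteases Bace1 and Psen2. Members were taken by gene symbol in the annotation of the array, and the set had been chosen on the levels and exon changes measured on these same arrays. Those values are therefore a description, and where calls of the members are counted nothing is read from them. All 9 genes were found, of 16263 genes with at least 1 probeset of their own, and they held 160 of 208093 such probesets. A probeset is a small group of array probes placed in an exon, so that exons of 1 gene can be followed separately.

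P19 is a line of mouse embryonal carcinoma cells. Day 0 cells were undifferentiated and untreated. Day 7 cells, labelled neuronal, and Day 10 cells, labelled early glial, came from cultures that had been aggregated for 4 days in 1 µM retinoic acid (RA), the signal that sends these cells towards neural fates. Each day had 2 biological duplicates on Mouse Exon arrays, 6 arrays in total, all from this single line, and each array held RNA of a whole culture, so that fewer cells of a type and less RNA per cell cannot be told apart. The gene level used below is the median over the probesets of a gene of log2(intensity + 16), and the offset of 16 understates changes of dim genes.

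APP is a membrane protein with a large outer part and a short cytoplasmic tail. It is cut outside the membrane by an alpha-secretase such as ADAM10 or by the beta-secretase BACE1. The remaining stub is then cut within the membrane by gamma-secretase, whose catalytic subunit is a presenilin, and the path through BACE1 releases the amyloid-beta peptide. APLP1 and APLP2 have the same overall build without the amyloid-beta sequence. The tail of all 3 proteins holds a motif that is bound by the Fe65 adaptors (encoded by Apbb1, Apbb2 and Apbb3) and by the Mint adaptors, of which Apba1 encodes a neuronal form. The family is known in neurons for roles in adhesion, neurite growth and synapse formation.

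The labels were checked against marker genes. Of 5 tested embryonal carcinoma markers, 4 fell on Day 7 and 3 on Day 10, and of 11 tested neuronal markers 9 rose on Day 7 and 7 on Day 10, against Day 0 in each case (limma, adjusted p under 0.05 and a 2-fold change). Of 6 tested astrocyte and radial glia markers, 3 rose and 1 fell on Day 7, and 4 rose and 1 fell on Day 10. On Day 10 against Day 7, 1 of these 6 rose and 0 fell, with a median log2 change of -0.25. The summed intensity of 8 such markers was 6264 to 6846 on Day 0, 12227 to 13014 on Day 7 and 9939 to 14056 on Day 10, so the later days overlapped. Of 3 tested primitive endoderm markers, 1 rose on Day 7 and 2 on Day 10, against Day 0. Genes of mesenchyme and smooth muscle also rose, 7 of 8 on Day 7 and 8 of 8 on Day 10. The summed intensity of the 8 mesenchymal markers was 2019 to 2143 on Day 0, 22283 to 25425 on Day 7 and 11922 to 19134 on Day 10, and that of 11 neuronal markers was 2992 to 3629, 19465 to 21486 and 7302 to 10008 on those days. The summed intensity of 7 embryonal carcinoma markers was 1218 in Day 10 replicate 1 and 6160 in Day 10 replicate 2, against 15415 and 17314 on Day 0. The Day 10 arrays stood farthest apart, with 1640 of 16263 genes more than 2-fold apart, while 787 were so far apart on Day 0 and 216 on Day 7, and the median gene was higher in Day 10 replicate 2 by 0.29 (log2). The part of these differences in the values of the amyloid family was not tested.

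The family itself split by member. App was at log2 levels of 10.34 and 10.21 on Day 0, 11.66 and 11.99 on Day 7, and 12.24 and 12.35 on Day 10. The 3 days did not overlap, with Day 10 highest and Day 0 lowest. The change was 1.54 on Day 7 (SE 0.30, limma, n = 2 per day), a 2.92-fold higher level, and 2.02 on Day 10 (SE 0.30), a 4.05-fold higher level. Between the later days the step was small, 0.47 (SE 0.30) on Day 10 against Day 7, but the median tested gene moved by -0.25 in that comparison, and relative to it App was higher by 0.72.

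Aplp1, whose product is found mainly in neurons, was at 7.77 and 7.42 on Day 0, 9.52 and 10.01 on Day 7, and 9.32 and 9.06 on Day 10. Its order differed from that of App, with Day 7 above Day 10 and both above Day 0, again without overlap. Aplp1 was 4.51-fold higher on Day 7 (log2 2.17, SE 0.32) and 3.03-fold higher on Day 10 (1.60, SE 0.32) than on Day 0. Day 10 lay below Day 7 (log2 change -0.58, SE 0.32, and -0.33 relative to the median tested gene).

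Aplp2, which is expressed widely outside the nervous system, was at 11.43 and 11.10 on Day 0, 11.48 and 11.21 on Day 7, and 11.49 and 11.85 on Day 10. The Day 0 and Day 7 arrays overlapped, and both Day 10 arrays were above them, replicate 1 by a small margin. The change was 0.08 (SE 0.31) on Day 7 and 0.40 (SE 0.31) on Day 10. The sign on Day 7 was kept in 13 of 16 alternative settings, some of which cannot alter it.

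**Figure D1:**
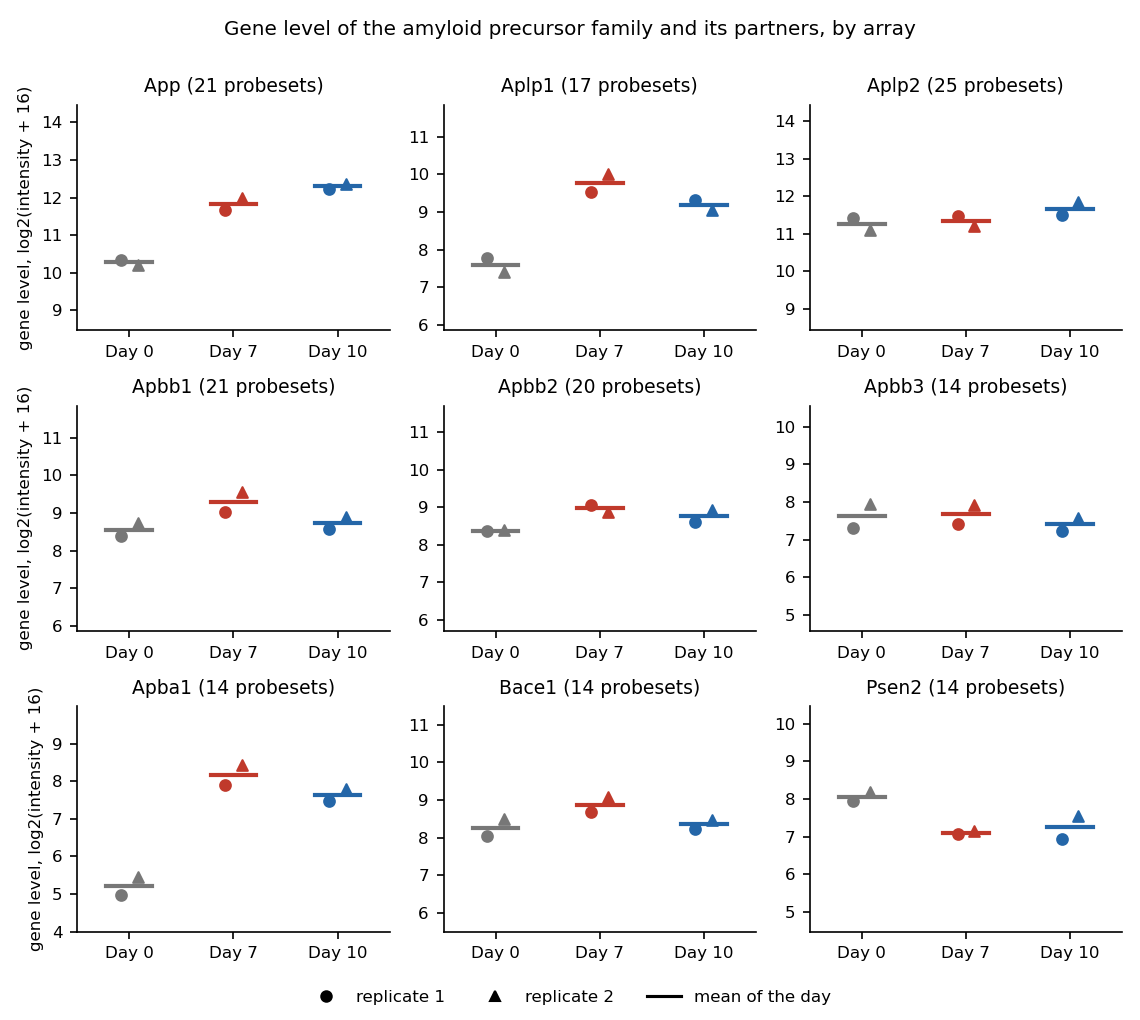
Gene level of each of the 9 genes, as the median of log2(intensity + 16) over its probesets, on Day 0 (grey), Day 7 (red) and Day 10 (blue). Circles and triangles are replicates 1 and 2 and bars are the mean of a day, and each panel spans the same range of log2 units. App, Aplp1 and Apba1 lie lowest on Day 0 and Psen2 lies highest there, while the Day 0 and Day 7 points of Aplp2 and Apbb3 overlap.

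Among the adaptors, Apba1 had the largest Day 7 difference of the 9 genes. It was at 4.99 and 5.44 on Day 0, close to the floor of 4 that the offset sets, at 7.89 and 8.42 on Day 7, and at 7.46 and 7.78 on Day 10. The days did not overlap, and Day 7 was the highest. Apba1 was 7.71-fold higher on Day 7 (2.95, SE 0.33) and 5.32-fold higher on Day 10 (2.41, SE 0.33) than on Day 0. Because the Day 0 level was dim, the size depended on the offset: the Day 7 change was 3.64 with an offset of 1 and 2.17 with an offset of 50.

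The Fe65 genes differed less between days. Apbb1, the form enriched in neurons, was at 8.37 and 8.73 on Day 0, 9.03 and 9.55 on Day 7, and 8.58 and 8.89 on Day 10. Both Day 7 arrays were above all others, with a change of 0.74 (SE 0.32) against Day 0, while the Day 10 arrays overlapped those of Day 0 (0.18, SE 0.32). Apbb2 was at 8.37 and 8.39 on Day 0, 9.07 and 8.88 on Day 7, and 8.61 and 8.94 on Day 10, so that both later days lay above Day 0 and overlapped each other. The Apbb2 change was 0.60 on Day 7 and 0.39 on Day 10 (SE 0.30 each). Apbb3 was at 7.32 and 7.94 on Day 0, 7.42 and 7.91 on Day 7, and 7.23 and 7.57 on Day 10. All 3 days of Apbb3 overlapped, and the duplicates differed by more than the days did.

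The 2 proteases differed. Bace1 was at 8.05 and 8.49 on Day 0, 8.68 and 9.07 on Day 7, and 8.24 and 8.47 on Day 10. Both Day 7 arrays were above all others, by 0.61 over Day 0 (SE 0.32), and Day 10 overlapped Day 0. Psen2, a catalytic subunit of gamma-secretase, was at 7.94 and 8.18 on Day 0, 7.08 and 7.14 on Day 7, and 6.93 and 7.56 on Day 10. It was the only member lower on both later days without overlap, with a change of -0.95 on Day 7 and of -0.82 on Day 10 (SE 0.32 each). Day 10 and Day 7 of Psen2 overlapped, with the Day 10 duplicates far apart.

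By the rule for calls, a limma adjusted p under 0.05 with at least a 2-fold change, 3 of the 9 genes (App, Aplp1 and Apba1) were higher and 0 lower on Day 7 than on Day 0, where 11.2% of 11384 tested genes were called higher and 4.50% lower. The same 3 genes were higher and 0 lower on Day 10 than on Day 0, where the background was 7.27% higher and 7.43% lower. That even split of 828 and 846 genes rested on both Day 10 arrays, with 994 higher and 345 lower without Day 10 replicate 1, and 680 higher and 2074 lower without Day 10 replicate 2. On Day 10 against Day 7, 0 of the 9 were called in either direction, with a background of 0.360% higher and 0.334% lower. The genes were picked on these values, so nothing is read from the counts. The median tested gene moved by 0.10 on Day 7 and by -0.11 on Day 10 (log2), and relative to it App was higher by 1.44 and 2.13 on those days, Aplp1 by 2.07 and 1.71, and Apba1 by 2.85 and 2.53. Without Day 7 replicate 2, App was not called on Day 7 (change 1.38), and Apba1 was left out where only genes above the median of all genes were tested. Psen2 was called lower on Day 7 under median polish, quantile normalization and centring of each array on its median, and on Day 10 without Day 10 replicate 2 (change -1.13).

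Single probesets followed their genes to differing degrees. On Day 7, both arrays were above both Day 0 arrays for 95 of the 160 probesets and below them for 15, while over all probesets these shares were 28.6% and 23.5%. All 21 probesets of App, 13 of 14 of Apba1 and 15 of 17 of Aplp1 were higher in this sense, and 12 of 14 of Psen2 were lower. For Aplp2 only 4 of 25 were higher. On Day 10 against Day 0, 82 probesets were higher and 11 lower, with 20.7% and 27.3% over all probesets. Of these, App again gave 21 of 21, and Aplp2 gave 15 of 25. On Day 10 against Day 7, 42 were higher and 51 lower, where the background was 14.1% and 30.1%. The App and Aplp2 genes made up most of those higher, with 17 of 21 and 17 of 25, whereas Aplp1 (12 of 17), Apbb1 (14 of 21) and Bace1 (9 of 14) gave many of those lower.

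**Figure D2:**
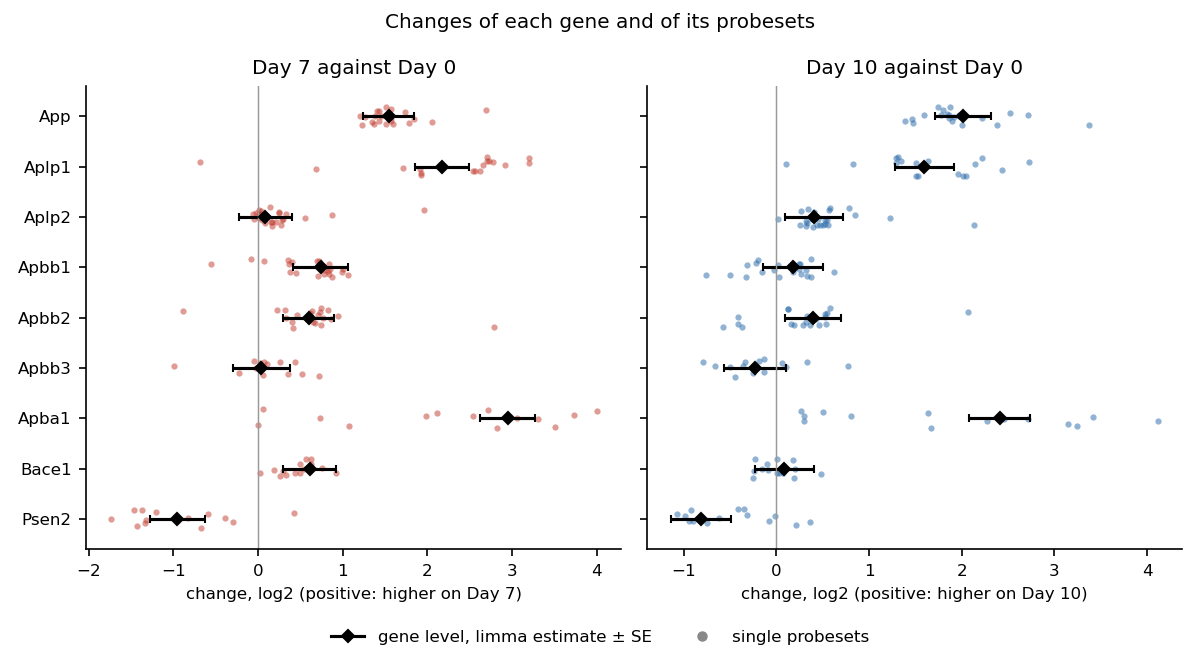
Change in log2(intensity + 16) on Day 7 (left) and Day 10 (right) against Day 0. Black diamonds are the gene level with its limma standard error and dots are single probesets of the gene, spread vertically for legibility. The dots of App and most of those of Aplp1 and Apba1 lie to the right of 0 and most of those of Psen2 to the left, and single dots of Aplp1, Aplp2 and Apbb2 lie far from the rest of their gene.

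Some exons did not follow their gene. The splicing index (SI) is the log2 level of a probeset minus that of its gene, taken as a difference from Day 0 and written SI_d7 for Day 7 and SI_d10 for Day 10, so a positive SI means that the exon took a larger share of the signal of its gene. The index was tested only where gene and probeset were bright enough, which 130 of the 160 probesets were. None of the 14 probesets each of Apba1 and Psen2 passed that filter. Of the 130, 4 had an absolute SI past the limit used in the study's methods on Day 7 and 4 on Day 10, where the background was 0.866% and 1.23% of 116343 probesets. Over all those probesets limma called 0 on either day (lowest adjusted p 0.228 on Day 7 and 0.458 on Day 10). Of the 116343, 5404 and 8377 had an unadjusted p under 0.05 (limma, n = 2 per day). If no exon changed, a share of 0.05 would have such a p. The Day 7 count was below that share and the Day 10 count above it. diffSplice, which sets each probeset against the other probesets of its gene, called 258 on each day. On Day 7 the members nearest to that limit were an Aplp1 exon past it (SI_d7 -1.48) and an Apbb1 exon short of it (SI_d7 -1.30). The study used a different gene-level summary, and its own index for this Apbb1 exon was past the limit. On Day 10 the nearest were an App exon past the limit (SI_d10 1.36) and an Aplp1 exon short of it (SI_d10 1.13). The study also dropped outermost, long and cross-hybridizing probesets, checked neighbouring probesets and kept only predicted alternative exons. These steps were not applied here. The Aplp2, Apbb2 and Apbb1 exons printed below are in the study's list of exons, and the App and Aplp1 exons named here are not.

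Probeset sequences of 3 named exons are printed to show what stands behind each index. They keep the orientation of the exon list they came from. They are short, with 54 bases for Apbb1, 36 for Apbb2 and 29 for Aplp2. Each is the stretch covered by a probeset and may be only part of its exon. Nothing about the reading frame is read from these lengths.

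Aplp2 5477899: acactcagccggagttgtaccacccaatg
Apbb2 5113528: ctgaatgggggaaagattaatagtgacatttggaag
Apbb1 5391818: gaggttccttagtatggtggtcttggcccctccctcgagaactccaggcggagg

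The Aplp2 exon was higher on both later days, while the gene level overlapped between Day 7 and Day 0. Probeset 5477899 had intensities of 217 and 151 on Day 0, 684 and 826 on Day 7, and 896 and 806 on Day 10. All later arrays were above both Day 0 arrays by more than 3-fold. SI_d7 was 1.88 and SI_d10 was 1.73 (SE 0.29 each), while the next highest Aplp2 probeset had an SI_d7 of 0.79 and 23 of the 25 lay within 0.5 of 0. The 2 adjacent probesets overlapped between Day 7 and Day 0. Probeset 4792653 had 2054 and 1672 on Day 0, 1896 and 1903 on Day 7, and 1835 and 2693 on Day 10, and relative to the mean of both neighbours the exon was higher by 1.80 on Day 7 and by 1.62 on Day 10 (log2).

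The Apbb2 exon had the highest SI_d7 of the 160 probesets. Probeset 5113528 had intensities of 36.4 and 24.9 on Day 0, 349 and 263 on Day 7, and 154 and 206 on Day 10. Day 7 was highest, Day 10 lay between, and the days did not overlap. SI_d7 was 2.19 and SI_d10 was 1.68 (SE 0.22 each), in a gene whose own level was higher by 0.60 on Day 7. Because the Day 0 intensities were dim, size and rank depended on the offset. The SI_d7 was 2.67 with an offset of 1 and 1.59 with an offset of 50. With an offset of 50 the Aplp2 exon had the higher SI_d7 (1.71). The adjacent probeset 4827469 had 373 and 384 on Day 0, 575 and 482 on Day 7, and 385 and 491 on Day 10. Relative to both neighbours the exon was higher by 2.44 on Day 7 and by 2.18 on Day 10. A second Apbb2 probeset, 5461423, had an SI_d7 of -1.48, but its intensity was at most 17.2 on any array, close to the offset, and it was not tested.

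The Apbb1 exon was lower on Day 7 and overlapped between Day 10 and Day 0. Probeset 5391818 had intensities of 454 and 386 on Day 0, 268 and 289 on Day 7, and 560 and 407 on Day 10. Both Day 7 arrays were below all 4 others, whereas the Apbb1 gene level was highest on Day 7. SI_d7 was -1.30 and SI_d10 was 0.00 (SE 0.35 each). The adjacent probeset 5486110 had 167 and 238 on Day 0, 338 and 514 on Day 7, and 164 and 234 on Day 10, so that exon and neighbour ran opposite ways between Day 0 and Day 7. Relative to both neighbours the exon was lower on Day 7 (log2 change -1.45). For Day 10 no such value is given, since the other neighbour, 5027091, had 73.4 and 498 there.

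The 54 bases of this Apbb1 exon were found, on the same strand, in a RefSeq promoter window of Apbb1 (GRCm38.p6, chr7:105568728-105569027, minus strand), which runs from 250 bases before to 50 bases after an annotated start of the gene. These 54 bases lay at chr7:105568823-105568876, and ended 45 bases short of the last base before that start. Where the exon itself ends was not analysed here. The window is printed 5′ to 3′ with the 54 bases in capitals. It places the probeset beside 1 of the 3 annotated starts of the gene in the RefSeq windows.

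Apbb1 window: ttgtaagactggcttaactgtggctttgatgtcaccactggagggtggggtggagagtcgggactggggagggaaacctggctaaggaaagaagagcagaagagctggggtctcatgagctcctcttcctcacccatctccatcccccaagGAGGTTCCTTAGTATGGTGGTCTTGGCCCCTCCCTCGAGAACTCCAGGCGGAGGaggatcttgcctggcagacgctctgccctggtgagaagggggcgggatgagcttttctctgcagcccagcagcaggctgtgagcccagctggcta

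The neighbourhood of the exon in other transcripts of the gene was not analysed here. The Aplp2 and Apbb2 exon sequences were not found in the promoter windows of their genes.

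In App, probeset 4349797 stood out. Its intensities were 269 and 191 on Day 0, 1596 and 1514 on Day 7, and 1953 and 3204 on Day 10, with no overlap between Day 0 and either later day and with the Day 10 duplicates apart. SI_d7 was 1.15 and SI_d10 was 1.36 (SE 0.29 each), so the exon was higher beyond the higher level of App. Of the 21 App probesets, 19 had an SI_d7 and 16 an SI_d10 within 0.5 of 0, and among the others the SI_d10 reached 0.70 for 4327540 and -0.63 for 4950362. Where this probeset lies within App was not analysed here.

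In Aplp1, probeset 5591686 had intensities of 467 and 215 on Day 0, 227 and 162 on Day 7, and 432 and 272 on Day 10. Day 0 overlapped both later days and Day 7 lay below Day 10, while the Aplp1 gene level was higher on both later days, and SI_d7 was therefore -2.86 and SI_d10 -1.49 (SE 0.40 each). A second probeset of Aplp1, 4724088, had 206 and 73.4 on Day 0, 221 and 202 on Day 7, and 253 and 217 on Day 10, with an SI_d7 of -1.48 and an SI_d10 of -0.77 (SE 0.37 each). For the second probeset Day 0 overlapped Day 7, and both Day 10 arrays were above Day 0. Only 8 of the 17 Aplp1 probesets had an SI_d7 within 0.5 of 0, and 11 had such an SI_d10.

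**Figure D3:**
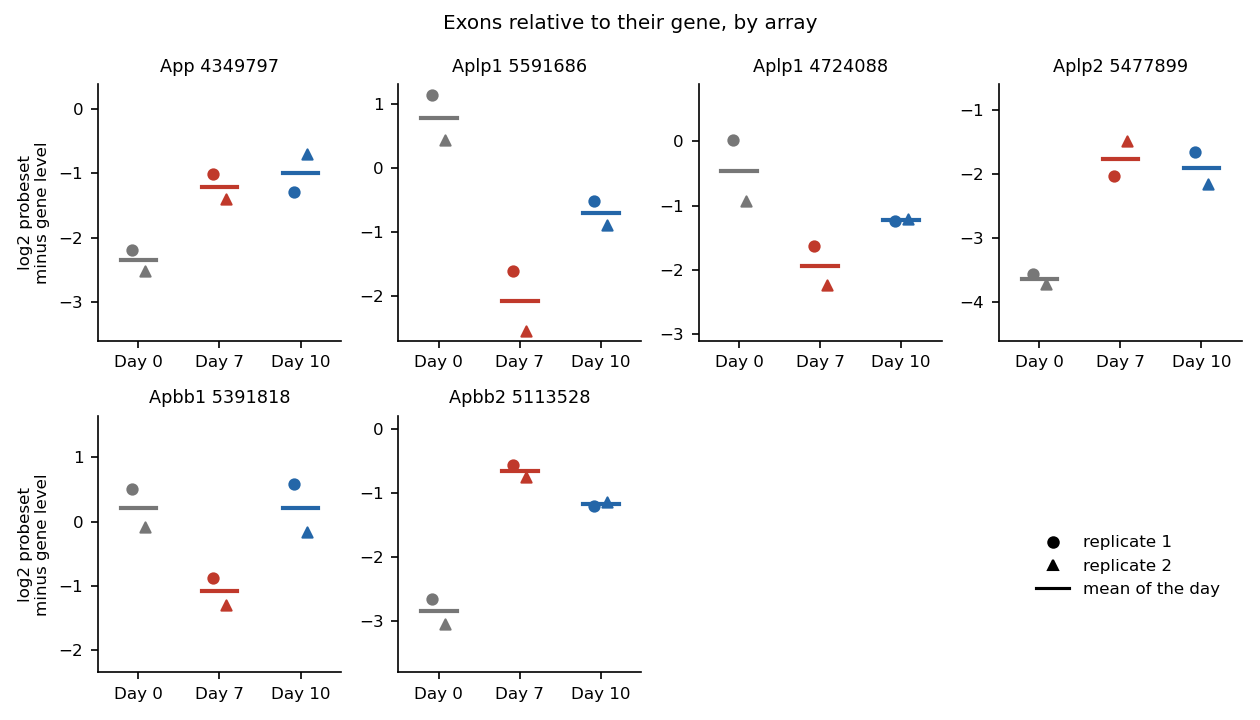
Level of 6 exons relative to their gene, as log2 of the probeset minus the gene level, on Day 0 (grey), Day 7 (red) and Day 10 (blue), with replicates 1 and 2 as circles and triangles and the mean of each day as a bar. Every panel spans the same range. The App, Aplp2 and Apbb2 exons lie higher on both later days than on Day 0, and the Apbb1 exon lies lower on Day 7 alone.

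The remaining members gave little at the exon level. Apbb3 probesets had an SI_d7 between -1.03 and 0.68 and Bace1 probesets between -0.59 and 0.32, and 13 of 14 Bace1 probesets were within 0.5 of 0. For Apba1, 4 of 14 probesets had an absolute SI_d7 past the limit and 6 an absolute SI_d10 past it, all outside the filter. Probeset 4616559 of Apba1 was under the offset on all 6 arrays, and 4769725 had 15.9 to 32.0, and their indices of -2.89 and -2.94 on Day 7 went with log2 changes of the probesets themselves of 0.06 and 0.00. Apba1 probeset 5441907 was brighter, with 220 and 258 on Day 0, 394 and 416 on Day 7, and 412 and 286 on Day 10, and an SI_d7 of -2.22 (SE 0.35). For Psen2, the highest index was that of the dim probeset 4623694, with an SI_d7 of 1.38 (SE 0.92), where the duplicates were far apart on every day (25.7 and 0.00 on Day 0, 52.4 and 1.6 on Day 7).

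The genes whose profile over the 6 arrays lay nearest to that of a family member, measured as the root mean square difference of centred log2 levels over 11383 other tested genes, differed for the 3 precursor proteins. Nearest to App were Hspa5, an endoplasmic reticulum chaperone (0.12), Dbi, an acyl-CoA binding protein (0.15), and Smarca2, an ATPase of BAF chromatin remodelling complexes (0.16). Nearest to Aplp1 were Dusp8, a phosphatase of MAP kinases (0.07), Ppfia2, a liprin of presynaptic active zones (0.09), and Cadm2, a cell adhesion molecule (0.14). Nearest to Aplp2 were the bicarbonate cotransporter gene Slc4a4 (0.06), the heparan sulfate sulfotransferase gene Hs6st1 (0.08) and Wfs1, which encodes a protein of the endoplasmic reticulum membrane (0.09). Aplp2 itself changed by 0.08 on Day 7 and 0.40 on Day 10, with duplicate SDs of 0.23, 0.19 and 0.25 on Days 0, 7 and 10. A profile near that of Aplp2 therefore matched differences between duplicates as well as between days.

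RefSeq promoter windows of the same kind were searched for 7 of the 9 genes, 11 windows in all. Windows of Apbb3 and Bace1 were not analysed here. Those of App, Aplp1 and Apba1, the 3 genes with the largest changes, are printed 5′ to 3′ with GC boxes (GGGCGG or its reverse complement CCGCCC) in capitals.

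App, GRCm38.p6 chr16:85173658-85173957, minus strand: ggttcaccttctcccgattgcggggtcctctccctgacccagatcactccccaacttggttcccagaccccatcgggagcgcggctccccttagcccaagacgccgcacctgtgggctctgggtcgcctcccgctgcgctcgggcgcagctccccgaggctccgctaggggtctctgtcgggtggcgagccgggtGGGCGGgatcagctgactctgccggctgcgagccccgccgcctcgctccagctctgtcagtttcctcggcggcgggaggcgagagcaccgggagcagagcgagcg
Aplp1, GRCm38.p6 chr7:30445533-30445832, minus strand: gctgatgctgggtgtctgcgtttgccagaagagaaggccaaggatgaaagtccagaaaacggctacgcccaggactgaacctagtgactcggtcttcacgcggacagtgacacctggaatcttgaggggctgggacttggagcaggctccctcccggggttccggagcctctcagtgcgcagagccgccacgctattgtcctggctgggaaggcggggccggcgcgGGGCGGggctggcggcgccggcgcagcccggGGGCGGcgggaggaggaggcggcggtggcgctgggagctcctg
Apba1, GRCm38.p6 chr19:23758626-23758925, plus strand: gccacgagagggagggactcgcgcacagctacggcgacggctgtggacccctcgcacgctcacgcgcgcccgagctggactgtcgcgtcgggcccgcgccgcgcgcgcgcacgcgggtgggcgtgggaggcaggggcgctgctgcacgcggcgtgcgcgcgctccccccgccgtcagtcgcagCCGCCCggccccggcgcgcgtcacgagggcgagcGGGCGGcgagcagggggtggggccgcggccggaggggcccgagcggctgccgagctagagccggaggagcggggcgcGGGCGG

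These windows held 1 GC box in App, 2 in Aplp1 and 3 in Apba1, and 8 of the 11 member windows held at least 1, against 35.7% of all 32851 windows of this length. Their GC content was 71.0%, 68.7% and 82.0%, and the median over all windows was 52.7%. The core motif of nuclear receptors, AGGTCA and on the other strand TGACCT, searched because the cells were treated with RA, was found in 0 of the 11 windows and in 16.3% of all windows. An E-box, CAGATG and on the other strand CATCTG, was in 1 of the 11, a window of Psen2, and in 17.2% of all. A match of letters is a description of the window only.

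The other genes around APP were taken from a list of 70, of which 63 could be tested. Of the others, 5 were not analysed here, and Ece2 and Scn4b were too dim for the test. The list was chosen with earlier results of these data known. Its shares, counts and adjusted p-values are therefore a description only. On Day 7, 15 of the 63 rose and 4 fell against Day 0 (limma), shares of 23.8% and 6.35% where all tested genes gave 11.2% and 4.50%, and the list median was 0.20 against 0.10 over all tested genes. Without Day 7 replicate 1 the count was 11 and without Day 7 replicate 2 it was 10, in place of 19. Cntn1, Chl1, Shc3, Nrg1, Cntn2, Itm2a, Reln and Apoe kept their Day 7 call without each array in turn, and the other 11 lost it without at least 1 array. On Day 10, 9 rose and 7 fell (14.3% and 11.1%), with a median of 0.05 against -0.11, and the count was 9 in place of 16 without either Day 0 array. The balance depended on the arrays, with 13 higher and 2 lower without Day 10 replicate 1, 8 higher and 12 lower without Day 10 replicate 2, and 8 higher and 1 lower without Day 0 replicate 2. Cntn1, Chl1, Shc3, Itm2a and Itm2b kept their Day 10 call without each array, and the other 11 did not. On Day 10 against Day 7, 1 rose (Apoe, without each array as well) and 1 fell (Nrg1, not called without either Day 7 array or Day 10 replicate 1), and the count varied from 1 to 7 when an array was left out.

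Among extracellular partners of APP, Cntn1, a contactin of axons, had the largest rise. It was at 5.67 and 4.78 on Day 0, 9.43 and 9.48 on Day 7, and 8.41 and 8.12 on Day 10, an 18.9-fold higher level on Day 7 (log2 4.24, SE 0.34, limma adjusted p = 2.28e-06) and an 8.25-fold higher one on Day 10 (3.04, SE 0.34, adjusted p = 5.69e-05). Cntn2, Reln and Clu also rose on Day 7. Apoe, the lipid carrier that binds amyloid-beta, fell to 8.91 and 8.75 on Day 7, against 12.38 and 12.39 on Day 0, a log2 change of -3.55 (SE 0.31, limma adjusted p = 4.24e-06). On Day 10 Apoe was at 11.37 and 11.89, which was 6.97-fold above Day 7 (log2 2.80, SE 0.31, limma adjusted p = 0.00113). The Day 10 difference from Day 0 did not pass the threshold (-0.75, limma adjusted p = 0.122).

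Of 8 other tested substrates of BACE1, 4 rose on Day 7 and the other 4 were not called. Over all tested genes 11.2% rose on that day. Chl1, a neural adhesion molecule, was at 4.81 and 4.88 on Day 0, 8.41 and 9.11 on Day 7, and 7.38 and 7.31 on Day 10, a 15.1-fold higher level on Day 7 (log2 3.92, SE 0.32, limma adjusted p = 2.49e-06) and a 5.64-fold higher one on Day 10 (2.50, adjusted p = 0.000184). Nrg1, a ligand of ErbB receptors, was at 5.78 and 5.74 on Day 0, 8.31 and 8.34 on Day 7, and 6.73 and 6.97 on Day 10. It rose 5.91-fold on Day 7 (limma adjusted p = 4.21e-05) and was lower on Day 10 than on Day 7 (log2 -1.47, SE 0.30, limma adjusted p = 0.043). The other called substrates on Day 7 were Sez6 and Sez6l, and on Day 10 Sez6l also rose and Jag1, a Notch ligand, fell.

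Of 16 tested adaptors and partners of the APP tail, 4 rose and 2 fell on Day 7. These shares were 25% and 12.5%, against 11.2% and 4.50% of all tested genes. Shc3, the neuronal member of the Shc adaptors, was at 6.31 and 7.34 on Day 0, 9.75 and 9.96 on Day 7, and 9.17 and 9.24 on Day 10, 8.17-fold higher on Day 7 (log2 3.03, SE 0.36, limma adjusted p = 4.64e-05) and 5.20-fold higher on Day 10 (2.38, adjusted p = 0.000563). Shc1, the widely expressed form, fell on Day 7 by a log2 change of -1.15 (SE 0.32, limma adjusted p = 0.0259). Apba2, a further Mint adaptor, Klc1, a kinesin light chain, and Dab2 rose on Day 7, and Numb fell on both days (-1.06, limma adjusted p = 0.0389 on Day 7, and -1.35, adjusted p = 0.0132 on Day 10). Dab1 and Mapk8ip2 fell on Day 10.

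Of 8 tested genes of gamma-secretase and its relatives, 1 rose and 0 fell on Day 7. Of 3 tested genes of alpha-secretases and the other beta-secretase, 1 rose and 0 fell on that day. The shares that rose were 12.5% and 33.3%, where all tested genes gave 11.2% higher and 4.50% lower. On Day 10 against Day 0, 0 of either group were called, against 7.27% higher and 7.43% lower. Adam10, the main alpha-secretase of neurons, was at 9.02 and 9.22 on Day 0, 10.63 and 10.36 on Day 7, and 9.80 and 10.38 on Day 10, and rose 2.60-fold on Day 7 (log2 1.38, SE 0.32, limma adjusted p = 0.00887), a call that was lost without Day 0 replicate 1 and without Day 7 replicate 1. Aph1b, a subunit of gamma-secretase with a close paralog in Aph1c, rose 2.40-fold on Day 7 (limma adjusted p = 0.013), a call lost without either Day 7 array or Day 0 replicate 1. No other gene among the 8 tested of gamma-secretase and its relatives was called on either day, and the list medians were 0.09 on Day 7 and 0.28 on Day 10. Bace2, the other beta-secretase, changed by 0.19 on Day 7 (limma adjusted p = 0.761).

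Of 18 receptors and sorting proteins, 1 rose and 1 fell on Day 7, and 3 rose and 3 fell on Day 10. The Day 7 share was 5.56% each way, where all tested genes gave 11.2% higher and 4.50% lower. The Day 10 share was 16.7% each way, against 7.27% higher and 7.43% lower. The 3 that rose on Day 10 were the BRI genes Itm2a, Itm2b and Itm2c. Itm2a was 3.30-fold higher on Day 10 (log2 1.72, SE 0.32, limma adjusted p = 0.00271), and Itm2b and Itm2c had changes of 1.48 and 1.37. Gga2, a sorting adaptor of the Golgi, fell on both days, by log2 changes of -1.45 on Day 7 (SE 0.38, limma adjusted p = 0.0171) and -1.56 on Day 10 (limma adjusted p = 0.0142). Gga3 fell on Day 10 (-1.46, limma adjusted p = 0.0273), as did Sorcs2 (-1.34, adjusted p = 0.0119).

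**Figure D4:**
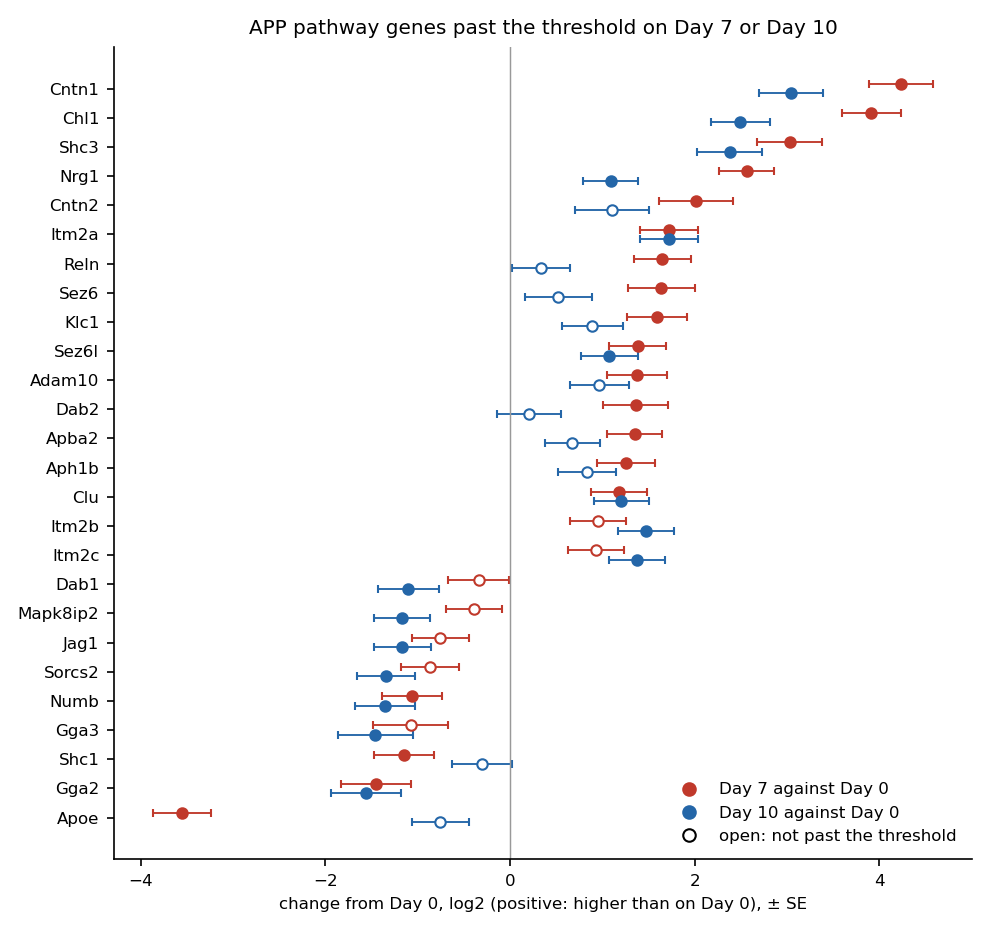
Log2 change from Day 0 on Day 7 (red) and Day 10 (blue), with limma standard errors, for each gene of the list around APP that passed the threshold on Day 7 or Day 10, and open symbols mark changes that did not pass it. Cntn1, Chl1 and Shc3 lie farthest to the right on both days, and Apoe lies farthest to the left on Day 7.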

How the data were processed

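The authors hybridized RNA of 3 days with 2 biological duplicates each. By the methods, exon-level values came from sketch normalization and PLIER, whereas the processing notes of the submitters list RMA together with Affymetrix Expression Console, both without a version. The deposited values are linear intensities of 228090 core probesets. Of these, 208093 carry 1 symbol in the platform annotation, 4327 several and 15670 none, and 2131 of 16285 symbols were updated. Detection p-values were not used here.

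Gene levels were medians of log2(intensity + 16). limma 3.58.1 (R 4.3.3) was run on all 6 arrays, with Benjamini-Hochberg adjustment, over genes whose mean level reached the 30th percentile. SI was tested where a gene had at least 4 probesets and reached the 45th percentile on Days 0 and 7 and the probeset reached the 25th percentile on Day 0 or 7, with diffSplice as the other test. Scripts were tested on simulated data. The members and the gene lists were chosen with earlier results of these data known. Genes were named by rule: all 9 members, their exons listed by the study or past its SI limit and otherwise the highest and lowest, called list genes, with values for the 4 largest changes per comparison and direction, and the 3 nearest profiles. Values of Adam10, Aph1b, Bace2, Itm2b and Itm2c fall outside the rule and were chosen after they were seen. Alternatives were other offsets, summaries, scalings, filters, thresholds and fits, and leaving out each array. Where an array was left out, the other array of its day was assumed to vary like the rest. The number of arrays limits the precision.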

Additional observations from a re-analysis of the deposited data

How the results depend on the processing

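The gene-level changes of the 9 members, 27 in all, moved by less than the SD of the duplicates in 412 of 432 comparisons with an alternative setting and by more in 20, and no called member changed sign. The indices of the named exons did so in 564 of 596 comparisons and by more in 32. App, Aplp1 and Apba1 stayed positive on both days in all 16 alternatives and Psen2 negative. The signs of Aplp2 on Day 7, Apbb3 on both days, Bace1 on Day 10, and Apbb2 and Psen2 on Day 10 against Day 7 were not kept in all.

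The count of genes called on Day 10 against Day 7 depended most on the setting, with 79 as reported, 245 with median polish, 199 after quantile normalization, 171 with arrays centred on the median, 165 with trend and robust fits, 208 with only the days compared, 47 with no filter on dim genes and 160 with the stricter one. In the same order, 5 genes around APP were called with median polish, 4 with trend and robust fits, 5 with only the days compared and 1 with no filter, against 2 as reported, and 1 with an offset of 50. With the replicate block the counts were 559 and 7. Same-numbered arrays deviated together on Day 10 and Day 0 (correlation across genes 0.33) but not on Day 7 and Day 0 (-0.08) or Day 10 and Day 7 (-0.03), so the numbers were not taken as pairs. Of the genes called, 71.4% were higher on Day 7 than on Day 0 and 58.6% with centred arrays, and on Day 10 against Day 7 the share took both directions. It was 51.9% as reported, 73.1% centred, 68.8% after quantile normalization and 66.0% with no filter, but 37.6% with trend and robust fits, 31.3% with the stricter filter, 29.8% with only the days compared, 28.6% with median polish and 21.5% with the replicate block, and from 4.85% to 81.3% without a Day 10 array. Of the called genes around APP, 56.3% were higher on Day 10 than on Day 0, with 73.7% after quantile normalization, 46.2% with the stricter filter, and 40.0% to 88.9% when an array was left out (lowest without Day 10 replicate 2, highest without Day 0 replicate 2).

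By splicing index, 0 probesets were called as reported, 5 on Day 7 and 1 on Day 10 with an offset of 1, 9 and 13 with no filter on dim probesets, and 258 on each day by diffSplice, of which 93 were shared.

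Leaving out each array, the genes called ranged from 976 to 1958 on Day 7 (lowest without Day 7 replicate 1), from 1044 to 2754 on Day 10 (lowest without Day 0 replicate 2), and from 33 to 1361 on Day 10 against Day 7. The highest counts in the last 2 ranges were those without Day 10 replicate 2. Those around APP ranged from 10 to 20, from 9 to 20 and from 1 to 7. The causes were not tested. Dim genes and exons, Apba1 on Day 0 among them, limit the size that can be given for a change.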
